A study of Mus musculus with 64 samples.

Results

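The auxiliary subunits of the AMPA receptor were followed through the brains of Cyfip2 +/R87C mice by taking, from a table of 18432 genes, the 10 genes whose Ensembl identifiers carry the symbols Cacng2, Cacng3, Cacng4, Cacng5, Cacng7, Cacng8, Cnih2, Cnih3, Shisa6 and Shisa9. All 10 were in the table, and all passed the filter on low values in each of the 22 comparisons. The mice carried an Arg87Cys change in 1 copy of Cyfip2, which encodes a subunit of the WAVE actin-regulating complex (KI), or were wild-type littermates (WT), all on the C57BL/6N strain. Frontal cortex and hippocampus from both hemispheres were taken at postnatal week (PWK) 1, 7, 14 and 28 from 4 mice of each genotype and age, which gave 16 groups of 4 RNA-seq libraries and 64 libraries in all. The KI allele is present in every cell from conception, and bulk tissue was sequenced, so fewer cells of a type and less RNA per cell cannot be told apart.

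AMPA receptors carry most fast excitatory transmission in the brain, and their GluA pore subunits reach and stay at synapses together with auxiliary proteins. Of the transmembrane AMPA receptor regulatory proteins (TARPs), those of type I anchor the receptor to PSD-95 family scaffolds and slow its closing. The cornichons Cnih2 and Cnih3 help the receptor leave the endoplasmic reticulum and prolong its currents, and Shisa6 and Shisa9 (CKAMP44) change its desensitization. Which of them a neuron makes differs between brain regions and changes as synapses mature.

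Scaling had made the library totals alike (29.23 to 32.6 M). A rough estimate from the smallest step between low values gave 24.8 to 36.8 M reads per library. Only 22.8% to 56.3% of low values lay within 0.1 read of a whole number, so these depths are not established. Values are normalized counts, that is, counts estimated per gene and put on a common scale between libraries. They are not levels per length, so a longer gene can have a higher value at the same level. The Arg87Cys change alters 1 codon, so the level of Cyfip2 is no check of the genotype. The summed level of 5 cortical marker genes was 11320 to 20980 in cortex libraries of any age and 2751 to 6949 in hippocampus libraries, and that of 5 hippocampal markers was 2053 to 4726 in cortex and 16330 to 27900 in hippocampus, so both tissues carried their own markers. WT cortex replicates 3 and 4 at PWK 28 stood apart in genes of the olfactory bulb, WT cortex replicate 2 at PWK 28 in choroid plexus genes, and KI hippocampus replicate 1 at PWK 14 in glial genes. The summed level of 4 choroid plexus markers ran from 258.5 to 124500 over the hippocampus libraries, with wide ranges within groups. Values of these genes are given with some of the results they touch. Choroid plexus sums are not given with the hippocampus at PWK 28 or with the tests in WT mice. Differences were tested with limma across all genes and a gene was called where its adjusted p (Benjamini-Hochberg) was below 0.05. A difference is on the log2(value + 1) scale throughout.

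Levels can be compared between genes per length, and these are given as normalized counts per kb of annotated exon in WT mice. Cnih2 (chromosome 19, 5092868 to 5098521, minus strand, GRCm38) stood first in both regions at PWK 1 and PWK 14. In the cortex at PWK 14 it reached 2736 ± 99.7 per kb (SD, n = 4), ahead of Cacng7 at 2274 ± 222 and Cacng3 at 1374 ± 129, and the ranges of these neighbours did not overlap. In the hippocampus of the same age Cnih2 reached 6448 ± 762 per kb, Cacng7 1711 ± 123, Cacng8 1068 ± 123 and Shisa6 946 ± 102, where the ranges of Cacng8 and Shisa6 overlapped. Cacng5 was the lowest member in both, at 49.3 ± 13.7 per kb in the cortex, where its range overlapped that of Shisa6 at 54.0 ± 5.65, and at 134 ± 22.6 per kb in the hippocampus.

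**Figure D1:**
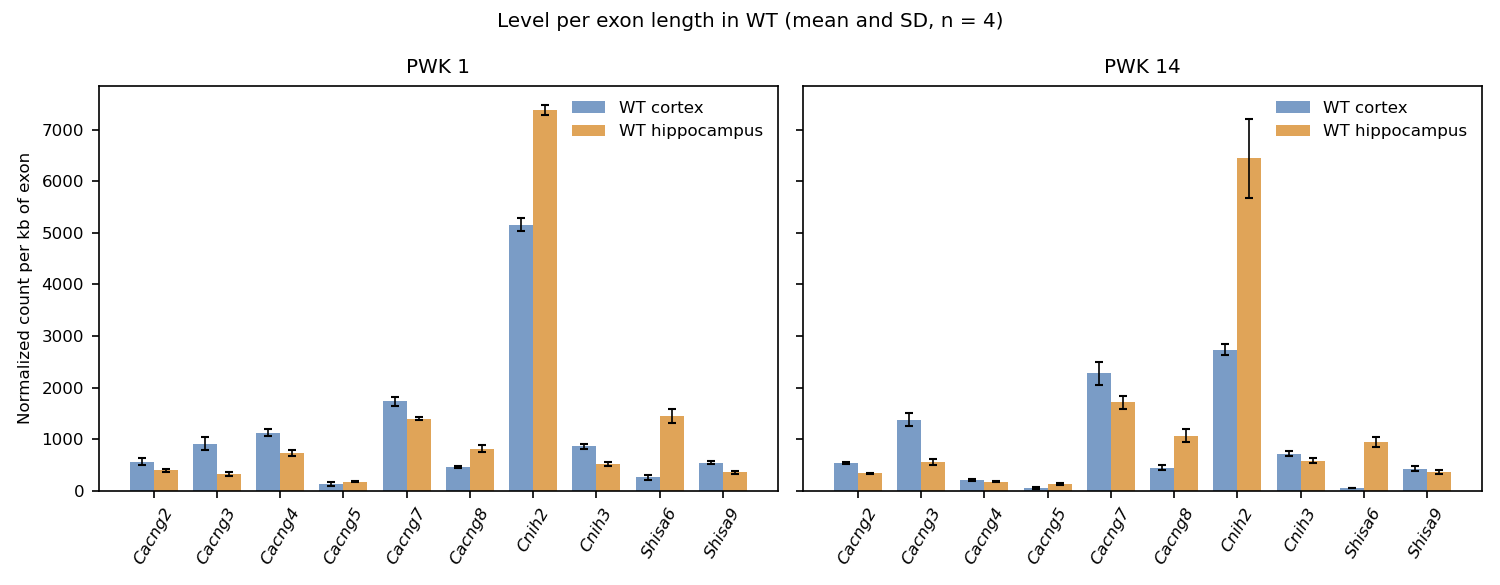
Normalized counts per kb of exon for the 10 genes in WT cortex (blue) and WT hippocampus (orange) at PWK 1 and PWK 14, as means with SD bars over 4 libraries. Cnih2 is the tallest bar in each region, and Shisa6 is 54.0 per kb in the PWK 14 cortex and 946 per kb in the hippocampus.

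Among the 6 TARPs, the same gene led in both regions and the runner-up differed. Cacng7 (chromosome 7, 3332955 to 3368221, plus strand), a type II TARP, made up 46.5 ± 3.8% of the per-length TARP level in the WT cortex at PWK 14 and 43.1 ± 0.5% in the hippocampus. Cacng3 (chromosome 7, 122670492 to 122769393, plus strand), a type I TARP, followed with 28.1 ± 2.6% in the cortex, and Cacng8 (chromosome 7, 3390683 to 3415648, plus strand), the type I TARP known for its hippocampal enrichment, with 26.8 ± 1.3% in the hippocampus. Cacng2, or stargazin (chromosome 15, 77991748 to 78120028, minus strand), took 10.9 ± 0.5% and 8.4 ± 0.3%. These shares describe RNA and were not tested between regions.

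The regional difference was tested in WT mice, with the 4 cortex and 4 hippocampus libraries of each age. Both regions were dissected from each mouse, but the labels do not tie a cortex library to a hippocampus library, so tests that span the regions took libraries as independent. At PWK 1, 9 of the 10 genes were called, 3 higher and 6 lower in the hippocampus (34.7% of all genes tested were called). At PWK 7, 4 were higher and 5 lower (40.8% of all genes), at PWK 14, 4 were higher and 6 lower (34.6%), and at PWK 28, 3 were higher and 4 lower (37.8%).

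Shisa6 (chromosome 11, 66211725 to 66525964, minus strand) had the widest gap of the 10 at each age. In the cortex it stood at 1692, 2107, 1615 and 2224 normalized counts at PWK 1 and at 456, 371, 417 and 367 at PWK 14. The hippocampus held 9426, 11815, 10616 and 11334 at PWK 1 and 7280.4, 6329, 6561 and 8013 at PWK 14. No hippocampal library came near a cortical one. The log2 difference was 2.51 (SE 0.10, adjusted p = 2.86e-08) at PWK 1. It was 4.22 at PWK 7, 4.13 at PWK 14 and 3.56 at the last age, or between 5.68-fold and 18.6-fold.

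Cacng8 and Cnih2 were higher in the hippocampus at all 4 ages without overlap. For Cacng8 the difference ran from 0.82 (SE 0.06) at PWK 1 to 1.45 (SE 0.08) at PWK 7 and 0.96 (SE 0.07) at PWK 28, and for Cnih2 from 0.52 (SE 0.04) to 1.29 (SE 0.05) and 1.11 (SE 0.05). Cacng3 lay on the other side: it was lower in the hippocampus at each age, by between 1.31 (SE 0.08, PWK 14) and 1.51 (SE 0.10, PWK 1) on the log2 scale, again without overlap. Cacng2 and Cacng7 were also lower in the hippocampus at each age, and Cacng2 went from -0.51 at PWK 1 to -0.94 at PWK 28.

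Cacng4 and Cnih3 were not called at every age. Cacng4 (chromosome 11, 107732357 to 107794557, minus strand) was lower in the hippocampus at PWK 1, 7 and 14 and not called at PWK 28 (-0.07, 95% interval -0.36 to 0.21). Cnih3 (chromosome 1, 181352628 to 181460641, plus strand) was lower at PWK 1 by 0.76 and at PWK 14 by 0.31, and was not called at PWK 7 or 28. Shisa9 (chromosome 16, 11984113 to 12270902, plus strand) was called lower at all 4 ages, with differences of -0.59, -0.20, -0.24 and -0.27. Its PWK 14 call had an adjusted p of 0.0492 and was lost in 5 of the 8 fits without 1 library, and its PWK 28 call was lost without the cortex replicates 3 and 4 described next (-0.15, adjusted p = 0.142).

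Cacng5 (chromosome 11, 107874605 to 107915055, minus strand), a type II TARP, was 1.35 (SE 0.13) higher in the hippocampus at PWK 7 and 1.46 (SE 0.18) higher at PWK 14. At PWK 28 its difference was 0.10 (SE 0.48, adjusted p = 0.893), and the WT cortex was split: replicates 1 and 2 held 162 and 158 normalized counts, and replicates 3 and 4 held 708 and 773. The hippocampal libraries of that age lay between 290.0 and 419.8. Without cortex replicates 3 and 4, an alternative chosen after the values were seen, the difference was 1.20. The libraries left out were those with the highest Cacng5 of the group, so this value followed from the choice and is no test of the region.

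The same 2 cortex libraries were high in genes of the olfactory bulb. Cdhr1, a marker of its output neurons, stood at 137, 115, 1576 and 1698 normalized counts in WT cortex replicates 1 to 4 at PWK 28, and Doc2g, known from the same cells, at 76.2, 67.6, 698 and 713. The sum of 6 olfactory bulb genes (Cdhr1, Doc2g, Tbx21, Eomes, Sp8 and Th, each with a mean above 1 in every group, a list drawn up after the values were seen) was 310.4, 261, 3403 and 3726 in these libraries and between 338 and 642 in the KI cortex of that age, where 1 of the genes was at 0 in a library. Single cortex libraries of other groups from PWK 7 on also had high values of both genes: KI replicate 1 at PWK 7 held 918 of Cdhr1 and 383 of Cacng5, and WT replicate 3 at PWK 14 held 625 and 264. The part of tissue content in the Cacng5 values was not tested.

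**Figure D2:**
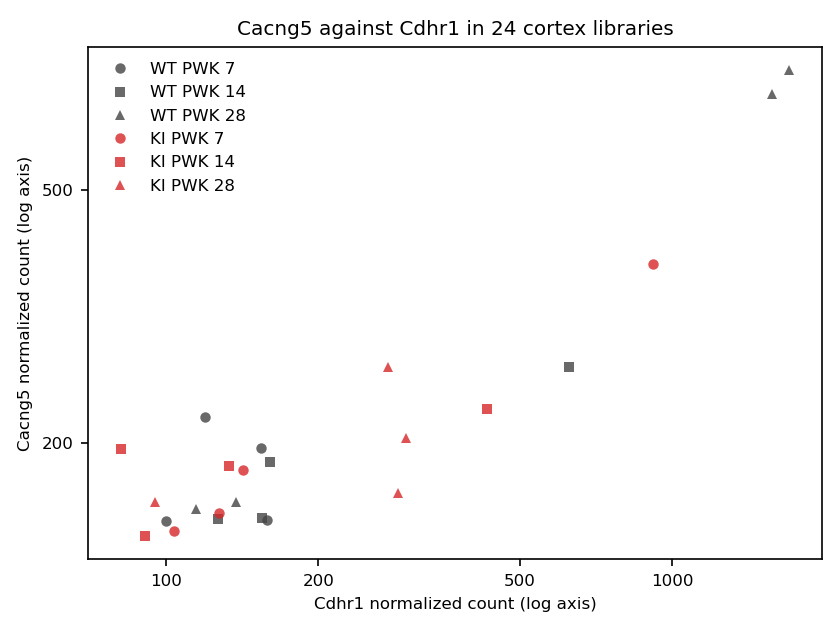
Cacng5 against Cdhr1 normalized counts, both on log axes, in the 24 cortex libraries of PWK 7, 14 and 28, with WT in grey and KI in red and 1 symbol for each age. WT replicates 3 and 4 of PWK 28 sit at the top right, with 708 and 773 of Cacng5.

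Maturation was followed in WT mice from PWK 1 to PWK 7 and from PWK 7 to PWK 28. Age cannot be told apart from any batch in which the ages were processed. Between PWK 1 and PWK 7, 9 of the 10 genes were called in the cortex, 2 higher and 7 lower at PWK 7, where 65.3% of all genes were called, and 9 in the hippocampus, 4 higher and 5 lower, where 61.3% were. The median difference of the 10 genes was -0.38 in the cortex, against 0.01 over all genes, and -0.11 in the hippocampus, against 0.01.

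Cacng4, a type I TARP known for its early expression, fell in both regions. It stood at 3921, 4364, 3772 and 4029 normalized counts in the WT cortex at PWK 1 and at 795, 949, 816 and 863 at PWK 7. In the hippocampus it went from 2531, 2612, 2451 and 2860.3 to 734, 582, 613 and 549. The log2 difference was -2.23 (SE 0.06, adjusted p = 1.21e-10) in the cortex and -2.08 (SE 0.09, adjusted p = 4.7e-09) in the hippocampus, and the ages did not overlap. Its share of the per-length TARP level was 22.8 ± 1.7% in the cortex at PWK 1 and 4.4 ± 0.4% at PWK 14.

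The cortex lost more of several other genes than the hippocampus did, by their estimates. Shisa6 fell by 2.32 (SE 0.10) in the cortex and by 0.61 (SE 0.08) in the hippocampus, Cacng5 by 1.52 (SE 0.18) and 0.53 (SE 0.08), and Cnih2 by 0.94 (SE 0.05) and 0.16 (SE 0.04). All 6 of these differences were called, and the difference between the regions was not tested. Shisa9 fell by 0.44 (SE 0.05) in the cortex and was not called in the hippocampus (-0.045, SE 0.06, adjusted p = 0.527). Cacng2 fell by 0.24 (SE 0.07) in the cortex and 0.22 (SE 0.05) in the hippocampus, both called. Cacng3 and Cacng7 rose in both regions, Cacng3 by 0.60 (SE 0.08) in the cortex and 0.61 (SE 0.10) in the hippocampus, and Cacng7 by 0.31 (SE 0.05) and 0.19 (SE 0.04). Cacng8 rose in the hippocampus by 0.50 (SE 0.08, adjusted p = 0.000284) and in the cortex had a difference of -0.13 (95% interval -0.26 to 0.01). Cnih3 fell in the cortex by 0.31 and rose in the hippocampus by 0.30, both called.

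From PWK 7 to PWK 28, 7 of the 10 genes were called in the cortex, 2 higher and 5 lower (22.2% of all genes were called), and in the hippocampus 5, all lower (14.7% of all genes). Cnih2 and Cacng7 were called lower in both regions: Cnih2 by 0.35 (SE 0.05) in the cortex and 0.53 (SE 0.05) in the hippocampus, and Cacng7 by 0.26 (SE 0.04) and 0.16 (SE 0.04). Cacng8 was lower by 0.46 (SE 0.08) in the hippocampus. Cacng2 was higher by 0.16 in the cortex and lower by 0.29 in the hippocampus. Without WT cortex replicates 3 and 4 of PWK 28, 4 genes were called in the cortex, all lower (12.2% of all genes were called). The calls of Cacng2, Shisa6 and Cacng4 were lost.

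**Figure D3:**
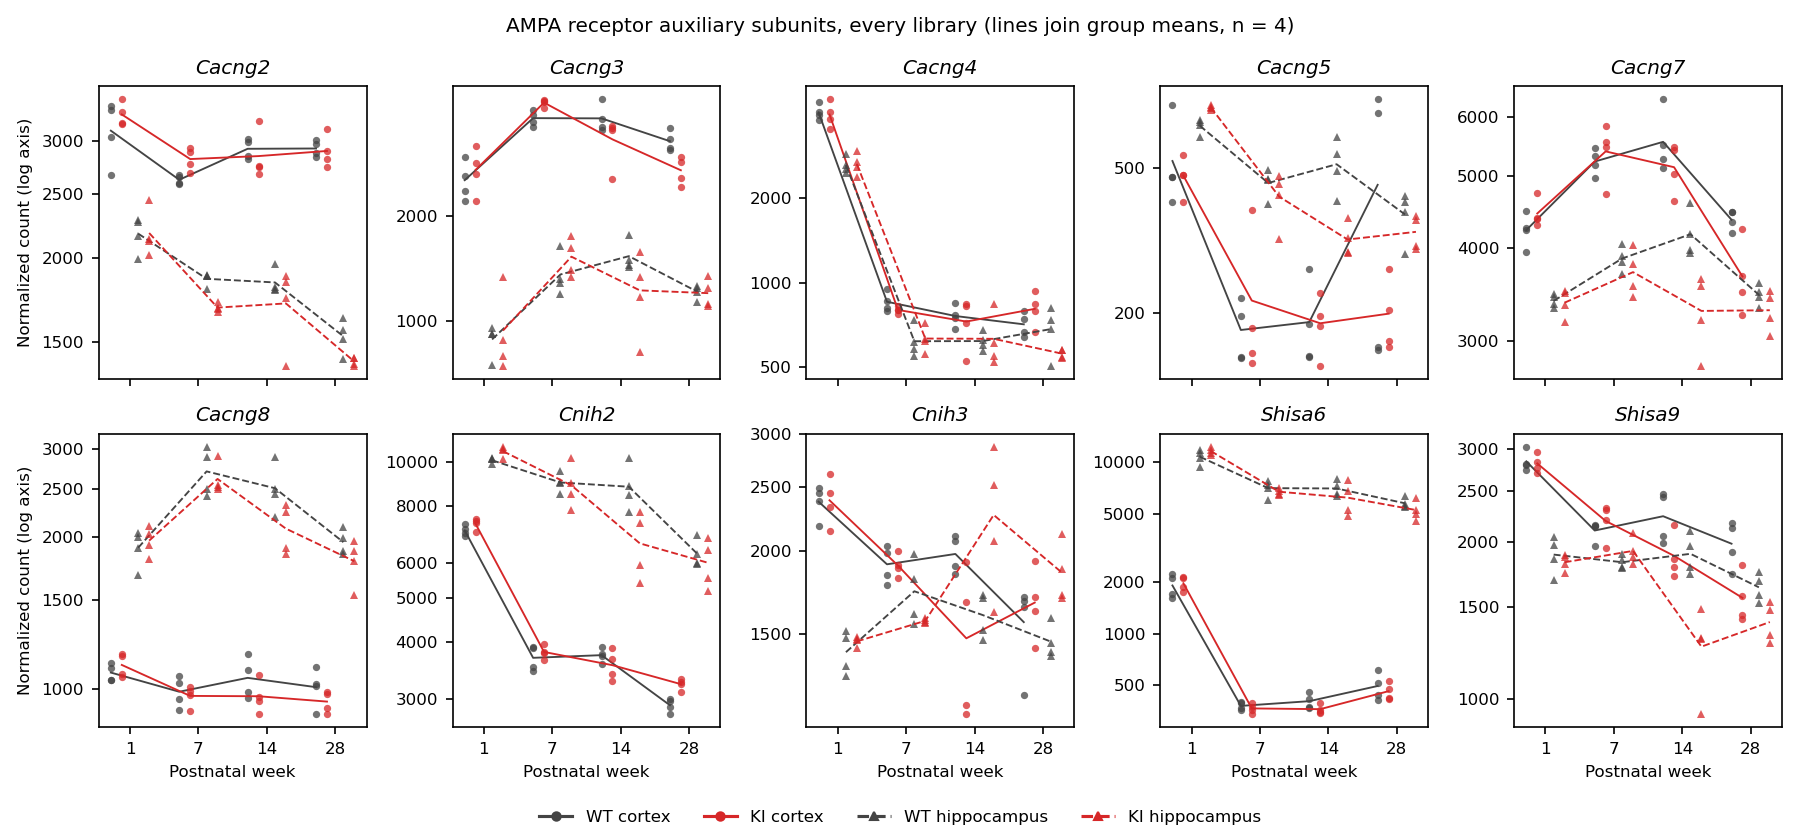
Normalized counts of the 10 genes in all 64 libraries on log axes, by postnatal week, with WT in grey, KI in red, cortex as circles with solid lines and hippocampus as triangles with dashed lines that join group means (n = 4). Cacng4 drops between PWK 1 and PWK 7 in both regions, and Shisa6 and Cnih2 lie higher in the hippocampus at every age.

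The question of the study was how the KI brain changes as its mice pass from neonatal spasms through a seizure-free period to recurrent seizures in adulthood, and the genotypes were compared at each age and region with 4 KI and 4 WT libraries. At PWK 1 and PWK 7 none of the 10 genes was called by limma. At PWK 1, 0 of 10 were called in the cortex, none at an unadjusted p under 0.05 either, and 0 in the hippocampus, with 1 at that unadjusted level (0.00546% and 0.0109% of all genes were called). At PWK 7, 0 of 10 were called in the cortex, with 2 at the unadjusted level, and 0 in the hippocampus, with 1 (0.00545% and 0.0218% of all genes). Estimates at these ages ran from -0.14 to 0.17 on the log2 scale. The 95% interval of Cacng5 in the cortex at PWK 7 ran from -0.39 to 0.72, the widest at these ages. The genes at the unadjusted level were Cacng5 in the hippocampus at PWK 1 (0.17, adjusted p = 0.867), Cacng2 and Cacng3 in the cortex at PWK 7 (0.10 and 0.15, adjusted p = 0.554 and 0.378) and Cacng2 in the hippocampus at PWK 7 (-0.14, adjusted p = 0.631).

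At PWK 14 the hippocampus had 4 genes called, all lower in KI: Cacng5, Cacng7, Cnih2 and Shisa9. Over all genes, 15.6% were called. The median difference of the 10 genes was -0.31, against 0.01 over all genes. The TARPs Cacng5 and Cacng7 and the CKAMP gene Shisa9 had no overlap between the genotypes.

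Cacng5 stood at 365, 322, 291 and 295 normalized counts in the KI hippocampus and at 609, 546, 490.4 and 405 in WT. Every KI library was below every WT one, with a log2 difference of -0.68 (SE 0.14, adjusted p = 0.0112), or 0.626 of the WT level. It was called in each of the 8 fits without 1 library and not in a fit of all 64 libraries with 1 shared spread (adjusted p = 0.0625).

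Shisa9 stood at 1309, 1305, 938 and 1488 in KI and at 1734, 1962, 1789.6 and 2093 in WT. The groups again lay apart, by -0.60 (SE 0.13, adjusted p = 0.0156), and the call was lost without WT replicate 2 or without WT replicate 4 (adjusted p up to 0.0513).

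Cacng7, the most abundant TARP per length, stood at 2781, 3559, 3637 and 3207.5 in KI and at 4179.9, 3943, 3982 and 4597 in WT. Its difference was -0.35 (SE 0.09, adjusted p = 0.0325), and it was called in 3 of the 8 fits without 1 library, with an adjusted p of up to 0.0926.

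Cnih2, the most abundant of the 10 per length, stood at 5419.9, 7773, 7355 and 5917 in KI and at 8460.1, 8880.2, 7744 and 10225 in WT. KI replicate 2 was above the lowest WT library. The difference of -0.42 (SE 0.13) had an adjusted p of 0.0495 and was called in 1 of the 8 fits without 1 library, so that each of 7 libraries was needed for the call.

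Cnih3, the other cornichon, was not called. It stood at 2871, 2513, 2068 and 1616 in KI and at 1717, 1701, 1466 and 1519 in WT, and 3 of the 4 KI libraries were above the WT libraries. The difference was 0.47 (SE 0.16, adjusted p = 0.0699), and leaving out KI replicate 4 was the 1 case of 8 that called it (adjusted p = 0.00922). Without KI replicate 1, the highest library, the difference was 0.35 (adjusted p = 0.10).

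Promoters are shown for 3 of the 4 genes called lower, Cnih2, Cacng7 and Cacng5, and for Cnih3 as the other cornichon. RefSeq start sites (GRCm38.p6) gave 300 bases, 250 before and 50 after the start, for 7 of the 10 genes (not for Cacng4, Shisa6 and Shisa9), and 4 are printed here 5′ to 3′ on the coding strand. Capitals mark GC boxes (GGGCGG on either strand) and, in Cacng5, 1 AP-1 motif (TGANTCA). The Cnih2 window lies at chr19:5098472-5098771 (minus strand), that of Cnih3 at chr1:181352378-181352677 (plus strand), that of Cacng7 at chr7:3332575-3332874 (plus strand) and that of Cacng5 at chr11:107915006-107915305 (minus strand).
Cnih2: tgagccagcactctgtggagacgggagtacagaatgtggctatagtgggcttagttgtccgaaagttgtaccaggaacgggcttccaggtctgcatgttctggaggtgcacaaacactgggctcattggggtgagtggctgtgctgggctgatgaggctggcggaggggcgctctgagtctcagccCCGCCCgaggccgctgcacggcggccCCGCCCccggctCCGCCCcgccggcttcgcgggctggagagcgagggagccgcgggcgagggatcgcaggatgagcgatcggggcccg
Cnih3: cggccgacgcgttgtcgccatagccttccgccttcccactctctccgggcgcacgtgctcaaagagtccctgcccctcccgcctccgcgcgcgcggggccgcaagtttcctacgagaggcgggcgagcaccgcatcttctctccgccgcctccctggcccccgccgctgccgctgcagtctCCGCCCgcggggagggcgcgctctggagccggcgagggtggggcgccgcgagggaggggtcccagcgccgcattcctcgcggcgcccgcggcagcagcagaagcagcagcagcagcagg
Cacng7: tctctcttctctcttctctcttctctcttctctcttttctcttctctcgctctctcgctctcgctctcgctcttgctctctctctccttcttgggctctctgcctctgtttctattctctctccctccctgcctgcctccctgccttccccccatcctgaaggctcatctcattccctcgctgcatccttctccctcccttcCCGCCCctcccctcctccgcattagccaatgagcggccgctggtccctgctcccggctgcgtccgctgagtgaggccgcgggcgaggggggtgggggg
Cacng5: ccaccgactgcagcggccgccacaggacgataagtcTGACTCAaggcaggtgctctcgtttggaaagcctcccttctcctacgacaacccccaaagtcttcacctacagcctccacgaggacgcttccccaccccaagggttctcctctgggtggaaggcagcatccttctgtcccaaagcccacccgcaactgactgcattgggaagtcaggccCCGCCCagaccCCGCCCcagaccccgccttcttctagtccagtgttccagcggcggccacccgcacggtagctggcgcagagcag

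Both cornichon windows were rich in G and C, at 67.3% for Cnih2, with 25 CpG dinucleotides, and at 75.3% for Cnih3, with 42, against medians of 52.7% and 7 over 32851 promoters. The Cnih2 window held 3 GC boxes, that of Cnih3 1, that of Cacng7 1 and that of Cacng5 2, and 35.7% of all promoters held at least 1. The AP-1 motif TGANTCA was found in the Cacng5 window alone of the 4, and 7.81% of all promoters held it. The cAMP response element TGACGTCA (1.79% of promoters), TATAAA (13.6%) and TTCAGCACC, a part of the RE1 element (0.371%), searched on both strands, were not in any of these 4 windows. No motif overlapped another. RefSeq lists a second Cacng5 start, whose window held none of these motifs.

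Because both cornichons were read from the same library, their ratio does not depend on library size. The Cnih2 to Cnih3 ratio of normalized counts was 1.89, 3.09, 3.56 and 3.66 in the KI hippocampus at PWK 14 and 4.93, 5.22, 5.28 and 6.73 in WT. At PWK 28 it was 2.45, 3.40, 3.98 and 3.27 in KI and 3.76, 4.97, 4.24 and 4.31 in WT, so the genotypes lay apart at PWK 14 and overlapped at PWK 28. At PWK 7 the KI mean was 5.66 ± 0.604 and the WT mean 5.23 ± 0.565 (SD, n = 4). In the cortex at PWK 14 the KI mean was the higher, with overlap. There the ratio was 1.91, 2.99, 2.31 and 2.81 in KI and 1.7, 1.82, 1.96 and 2.12 in WT. The ratio was formed after the values of both genes were seen and is given without a test.

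**Figure D4:**
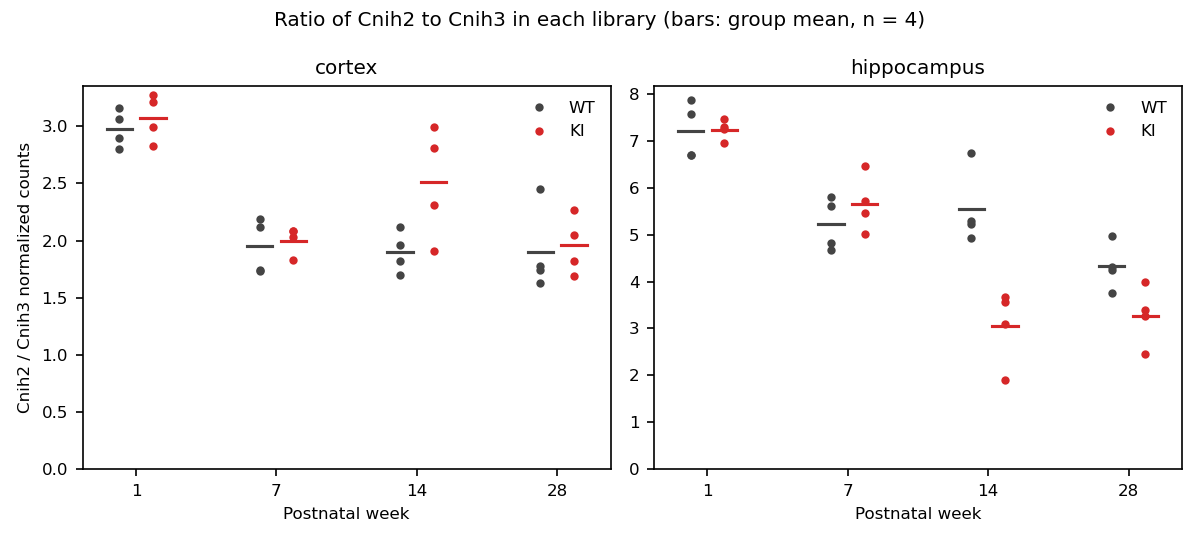
Ratio of Cnih2 to Cnih3 normalized counts in each library by postnatal week, in cortex and hippocampus, with WT in grey, KI in red and bars at group means (n = 4). In the hippocampus at PWK 14 the KI libraries lie between 1.89 and 3.66 and the WT libraries between 4.93 and 6.73.

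Other genes of the hippocampus at PWK 14 moved with the genotype in the same libraries. The summed level of 5 astrocyte markers was 204100 to 300500 in KI and 130900 to 156800 in WT, 2 of the 5 being called higher, and that of 4 CA1 pyramidal neuron markers was 12850 to 14780 in KI and 16560 to 18240 in WT, 2 of the 4 being called lower. All markers of both lists were detected in every library. Excitatory neuron markers summed to 59370 to 97730 in KI and 63580 to 76860 in WT, 2 of 5 being called lower, and choroid plexus markers to 1900.0 to 98660 and 2046 to 104600, 0 of 4 being called by limma. A sum weighs the most abundant genes of a list most and does not describe each gene. KI replicate 1 had the highest astrocyte sum, 300470, and a microglial sum of 12523, where the other 3 KI libraries lay between 4072 and 5610.5. Without it, Cacng5, Cacng7 and Shisa9 were still called and Cnih2 was not (adjusted p = 0.0682), and Cnih3 stayed uncalled. In that fit 17.4% of all genes were called. The part of cell content in these differences was not tested.

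In the cortex at PWK 14 no gene was called by limma, with 2 at an unadjusted p under 0.05, where 5.18% of all genes were called. Cnih3 stood at 1923, 1135.5, 1675.5 and 1170.4 in KI and at 2104, 2074, 1896 and 1844 in WT, a difference of -0.46 (SE 0.15, adjusted p = 0.111). KI replicate 1 lay among the WT values, and without it the gene was called (adjusted p = 0.0202). KI replicate 2, the lowest for Cnih3 and Cacng3, held 13789 summed over 5 striatal genes (Drd1, Adora2a, Ppp1r1b, Six3 and Rgs9, a list drawn up after the values were seen), where KI replicates 1, 3 and 4 held 9739, 4923 and 4629 and the WT libraries 2763 to 3677. The 4 KI sums were all above WT, and the highest KI value of Cnih3 was in replicate 1. Without replicate 2 the Cnih3 difference was -0.34. Inhibitory neuron markers summed to 23510 to 31580 in KI and 18690 to 20390 in WT, 4 of 6 being called higher and 1 lower. The part of tissue or cell content was not tested.

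At PWK 28 the hippocampus had 1 of the 10 genes called, Cnih3, where 15.8% of all genes were. It stood at 2124, 1879.7, 1715 and 1698 in KI and at 1585, 1388, 1408 and 1453 in WT. All KI libraries were above all WT libraries, by 0.34 (SE 0.08, adjusted p = 0.0118), or 1.27-fold, and each fit without 1 library called it. Shisa9 stood at 1278, 1532, 1328 and 1477.5 in KI and at 1751, 1684, 1581 and 1526 in WT, a difference of -0.22 (SE 0.07, adjusted p = 0.0551). Cacng5, which had been lower at PWK 14, had a difference of -0.15 (95% interval -0.43 to 0.13). Astrocyte markers summed to 185200 to 216000 in KI and 131800 to 140400 in WT, 3 of 5 being called higher, and 5 microglial markers to 4919 to 5753 and 4229 to 4361, 3 of 5 being called higher. Their part in the Cnih3 difference was not tested.

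The cortex at PWK 28 had 3 genes called, all lower in KI: Cacng3, Cacng7 and Shisa9 (22.2% of all genes were called). The median difference of the 10 genes was -0.09, against -0.00 over all genes. With 3 of 10 called against 22.2% of all genes, the count is no result about the 10 genes as a set.

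Cacng3 stood at 2430.3, 2959, 2867 and 2583 in KI and at 3129.9, 3334, 3576 and 3090.1 in WT, without overlap and with a difference of -0.28 (SE 0.08, adjusted p = 0.0253). Cacng7 stood at 3253, 4246, 3666 and 3496 in KI and at 4473, 4332, 4188 and 4470.0 in WT, where KI replicate 2 was above 1 WT library, with a difference of -0.26 (SE 0.08, adjusted p = 0.0353). Shisa9 stood at 1448, 1801, 1422 and 1574 in KI and at 1732, 1907, 2165 and 2119.7 in WT, with a difference of -0.34 (SE 0.10, adjusted p = 0.0259).

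None of the 3 calls held throughout. Of the 8 fits without 1 library, 4 called Cacng3, 1 called Cacng7 and 3 called Shisa9, with an adjusted p of up to 0.0888. Leaving out WT replicates 3 and 4, the libraries with high olfactory bulb genes, left 0 of the 10 called in a limma fit of 4 KI and 2 WT libraries, in which 7.71% of all genes were called, and differences of -0.26 for Cacng3, -0.27 for Cacng7 and -0.23 for Shisa9. WT replicate 2, which stays in that fit, held 21413 summed over 4 choroid plexus markers, where the other 3 WT libraries held 326 to 813 and the KI libraries 308 to 979. Without replicate 2 alone, none of Cacng3, Cacng7 and Shisa9 was called (adjusted p = 0.0645, 0.0741 and 0.0502, with differences of -0.27, -0.26 and -0.36). That fit called 15.9% of all genes. The fit of all 64 libraries did not call Cacng3 (adjusted p = 0.108).

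Cnih2 stood at 3261, 3232, 3324.5 and 3109 in the KI cortex at PWK 28 and at 2963.5, 2779, 2871 and 2997 in WT. Although the groups did not overlap, its difference of 0.16 (SE 0.05) had an adjusted p of 0.0515. Cacng5 had 204, 162, 264 and 167 in KI against the split WT values given above, and a difference of -0.81 whose 95% interval ran from -1.92 to 0.29. Without WT replicates 3 and 4 its difference had the other sign, 0.29 (adjusted p = 0.447). Inhibitory neuron markers summed to 30090 to 45050 in KI and 21700 to 27860 in WT, 4 of 6 being called higher and 1 lower. Excitatory neuron markers summed to 90250 to 109400 in KI and 65610 to 73290 in WT. Only 1 of 5 was called higher, so this sum does not stand for all 5 genes. The 5 striatal genes summed to 8423 to 9950 and 3423 to 6602. The part of these lists in the member differences was not tested.

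**Figure D5:**
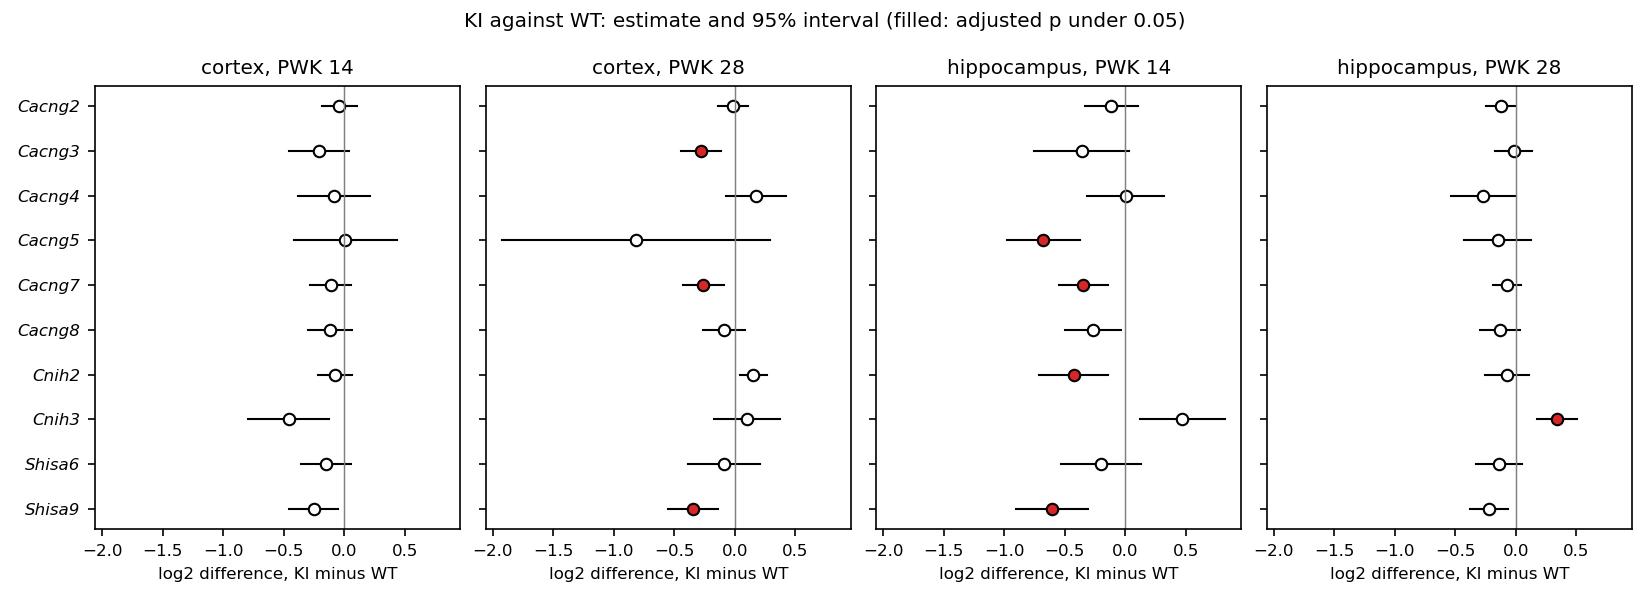
Difference between KI and WT on the log2(value + 1) scale for each of the 10 genes in cortex and hippocampus at PWK 14 and 28, with 95% intervals from limma. Filled circles mark an adjusted p under 0.05, which are Cacng3, Cacng7 and Shisa9 in the cortex at PWK 28, Cacng5, Cacng7, Cnih2 and Shisa9 in the hippocampus at PWK 14 and Cnih3 in the hippocampus at PWK 28.

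Whether the genotype difference itself differed between hippocampus and cortex was tested in the 16 libraries of an age. At PWK 14, 1 of the 10 genes was called, Cnih3 (2.85% of all genes were called). Its KI difference was 0.47 in the hippocampus and -0.46 in the cortex, which gave 0.93 (SE 0.24, adjusted p = 0.0459) between the regions. It was called in 2 of the 16 fits without 1 library, and without KI hippocampus replicate 1 it was 0.81 (adjusted p = 0.0609). Cacng5 came next, at -0.68 (SE 0.25, adjusted p = 0.161). At PWK 28 none was called by limma, with 3 at an unadjusted p under 0.05 (4.57% of all genes were called). At PWK 1 none was called, also without adjustment, and at PWK 7 none was, with 1 without adjustment (0% and 0.00543% of all genes). Shisa9 had estimates of -0.36 at PWK 14 and 0.12 at PWK 28 between the regions, with 95% intervals of -0.72 to 0.01 and -0.14 to 0.38.

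The change of the genotype difference from PWK 14 to PWK 28 was tested in each region. In limma fits, 0 of the 10 genes were called in the cortex and 0 in the hippocampus, and 0% of all genes were called in either, while 2770.0 genes in the cortex and 2274 in the hippocampus had an unadjusted p below 0.05. At an unadjusted p under 0.05 there were 2 in the cortex and 4 in the hippocampus, where Cacng5 had an estimate of 0.53 (95% interval 0.12 to 0.93), Shisa9 of 0.38 (0.05 to 0.72), Cnih2 of 0.35 (0.01 to 0.70) and Cacng7 of 0.28 (0.05 to 0.51). The differences at the 2 ages were therefore not shown to differ.

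The pore subunits and partners of the receptor give the context of these values. Over all genes, 15.6% were called in the hippocampus at PWK 14 and 15.8% at PWK 28, and 5.18% and 22.2% in the cortex. Of the 4 pore subunit genes, Gria2 and Gria3 were called lower in the hippocampus at PWK 14, by 0.39 (SE 0.08) and 0.35 (SE 0.08), and in the cortex at PWK 28, by 0.19 (SE 0.06) and 0.42 (SE 0.06). Gria3, which codes for GluA3, was the 1 called in the cortex at PWK 14 (-0.47, SE 0.08) and Gria2, which codes for the calcium-limiting GluA2, the 1 called in the hippocampus at PWK 28 (-0.23, SE 0.05). No pore subunit was called higher at these ages.

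Other genes of the receptor complex and its biogenesis went both ways. Of 15, 5 were called higher and 3 lower in the hippocampus at PWK 14 (15.6% of all genes were called). At PWK 28, 4 were called higher and 3 lower there (15.8%). In the cortex none was called at PWK 14 (5.18%), and 4 were called higher and 1 lower at PWK 28 (22.2%). Olfm2, a secreted glycoprotein, was higher by 1.30 (SE 0.15) and Gsg1l, an auxiliary subunit related to the TARPs, by 1.08 (SE 0.11) in the hippocampus at PWK 14, and Prrt1, which helps to hold AMPA receptors outside the synapse, was lower by 0.76 (SE 0.09). Shisa7, a further CKAMP gene, was called lower in 3 of these 4 comparisons, by 0.49 (SE 0.13) in the hippocampus at PWK 14, 0.50 (SE 0.05) there at PWK 28 and 0.31 (SE 0.06) in the cortex at PWK 28.

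Of 14 scaffold and trafficking partners, 2 were called higher and 1 lower in the hippocampus at PWK 14 (15.6% of all genes were called). At PWK 28, 2 were called higher there (15.8%). In the cortex 2 were called higher and 1 lower at PWK 14 (5.18%), and 4 higher and 2 lower at PWK 28 (22.2%). The pentraxin Nptx2, which gathers AMPA receptors at synapses and is induced by activity, was higher in the hippocampus by 3.18 (SE 0.30) at PWK 14 and by 1.79 (SE 0.31) at the later age, and in the cortex by 1.39 (SE 0.22) at PWK 14. Its relative Nptx1 was higher in the cortex at both ages, by 0.44 (SE 0.09) and 0.75 (SE 0.09). Camk2a was lower in the cortex by 0.46 (SE 0.09) at PWK 14 and by 0.72 (SE 0.12) at PWK 28. Cacng6, a gamma subunit of voltage-gated calcium channels that is no TARP, rose in 3 of the 4: by 1.51 (SE 0.34) in the hippocampus at PWK 14, by 1.15 (SE 0.25) at PWK 28 and by 1.38 (SE 0.32) in the cortex at PWK 28, from WT means of 18.1 to 23.6 normalized counts, far below those of the 10 genes.

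Across the 16 group means, the genes most like each member were found among 12809 genes by Pearson's r, as a description of groups that share tissue, age and mice. Cacng4 was closest to Stmn2, a gene of growing neurites (r = 0.995), Shisa6 to Tspan18 (0.995), Cnih2 to Map4 (0.986), Cacng3 to Rims2 (0.986), Cacng2 to Brinp2 (0.985) and Cacng8 to Npy2r (0.982). Cacng7 was closest to Pou6f1 (0.967), Shisa9 to Kcnt2 (0.963) and Cacng5 to Mdga1 (0.953). For Cnih3 the best match, Ccny, reached 0.825. Among pairs of members, r ran from -0.954 for Cacng3 and Shisa6 to 0.931 for Cnih2 and Shisa6, and Cnih2 and Cnih3 had an r of -0.075.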

How the data were processed

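RNA levels of frontal cortex and hippocampus were measured by stranded RNA-seq in 16 groups of 4 libraries, grouped by region, genotype and age as labelled. The processing notes of the submitters name Salmon 0.11.2, DESeq2 1.19.11, R 3.6.0 and GRCm38. The values the authors deposited are a normalized signal per gene, made from Salmon estimates that DESeq2 put on 1 scale across the 64 libraries. Whole reads could not be recovered (22.8% to 56.3% of low values lay within 0.1 read of a whole number), so count tests were not used and precision was judged from the spread between mice. Gene models came from GENCODE, which matched 18420 of 18432 identifiers. Exons of Cacng2 and Cnih2 overlap genes on the opposite strand (A730060N03Rik and Yif1a), and those of Cacng8 a small RNA gene on its own strand.

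Tests were limma-trend (limma 3.58.1, R 4.3.3) on log2(value + 1) over genes with a mean of at least 1 in the libraries compared, without covariates, with Benjamini-Hochberg adjustment over all genes tested and calls at an adjusted p under 0.05. The code was tested on simulated data. Per-length levels are values per kb of union exon. Any of the 10 members could be named in a comparison, and genes of the context lists only where called, at most 3 per list and direction by smallest p. Members, lists and tests were chosen with earlier results of these data known. The olfactory bulb and striatal lists, the cornichon ratio and the fits without WT cortex replicates 3 and 4 at PWK 28 were added after the values were seen. Alternatives were a pseudocount of 8, no filter, a mean of at least 100.0, total-sum and upper-quartile scaling, a GC content and length correction, a fit of all 64 libraries, the replicate number as a block and leaving out each library.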

Additional observations from a re-analysis of the deposited data

Results flagged for a closer look

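Of 160 sets of 4 libraries (10 genes in 16 groups), 10 held a library that stood apart from the other 3 by Dixon's test, and chance alone gives about 1 in 20. The high ones were Cacng2 at 3213 in KI cortex PWK 14 and at 1960.0 in WT hippocampus PWK 14, Cacng5 at 383 in KI cortex PWK 7, and Cacng8 at 2899 in KI hippocampus PWK 7. The low ones were Cacng2 at 1802 in WT hippocampus PWK 7, Cacng3 at 2549 in KI cortex PWK 14 and at 750.5 in WT hippocampus PWK 1, Cnih2 at 9901 in WT hippocampus PWK 1, Cnih3 at 1212 in WT cortex PWK 28 and Shisa9 at 1958 in WT cortex PWK 7. The Cacng5 library of KI cortex PWK 7 also held 918 normalized counts of Cdhr1, where the other 3 held 104 to 142. The split of Cacng5 in WT cortex PWK 28 (162, 158, 708 and 773) is 2 against 2 and is not found by this test.

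The KI difference of Cnih3 at PWK 14 differed between hippocampus and cortex by 0.93 on the log2 scale (limma interaction term, adjusted p = 0.0459). Fits without 1 library gave 0.81 to 1.08, and 2 of 16 called it, with adjusted p values from 0.0111 to 0.0934.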

How the results depend on the processing

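Fits without 1 library left the count of the 10 genes called between KI and WT at 0 to 1 in the cortex at PWK 14, 0 to 3 at PWK 28, 1 to 4 in the hippocampus at PWK 14 and 1 to 3 at PWK 28, and that of the region difference at 0 to 1 at PWK 14 and at PWK 28. In WT mice the PWK 28 against PWK 7 count ran from 4 to 7 in the cortex and from 3 to 5 in the hippocampus. Without WT cortex replicates 3 and 4 of PWK 28 the KI against WT count there was 0 (main 3), with 7.71% of all genes called (main 22.2%). The PWK 28 against PWK 7 count was then 4 (main 7), with 12.2% of all genes called (main 22.2%). Other counts in this paragraph and the next are given without the share of all genes called. A change in those counts can therefore not be told apart from a change over all genes. A fit of all 64 libraries gave 1 in the cortex at PWK 14 (main 0, Cnih3 gained), 2 for the region difference at PWK 14 (main 1), 1 for the change from PWK 14 to 28 in the cortex (main 0, Cnih3), and 4 and 3 for PWK 28 against PWK 7 in cortex and hippocampus (main 7 and 5). It gained Cacng3, Cacng8 and Cnih3 and lost Cacng5 in the hippocampus at PWK 14 (adjusted p = 0.0625) and Cacng3 in the cortex at PWK 28 (0.108), where it gained Cacng5 (0.0229). The GC content and length correction gave 2 in the hippocampus at PWK 14 (main 4). The stricter filter on low values and total-sum scaling each gave 2 in the hippocampus at PWK 28 (main 1), and total-sum scaling gave 0 for the region difference at PWK 14 (Cnih3 adjusted p = 0.0529). The causes were not tested. Measured against the main fit, no called value reversed under the alternatives run. The Cacng5 difference that the fit of all 64 libraries called in the cortex at PWK 28 was -0.81. Without WT cortex replicates 3 and 4, the libraries with high olfactory bulb genes, it was 0.29 and not called. With the longest transcript as length, 14 of 80 ranks changed.

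Replicate numbers are not said to mark a mouse. Deviations of same-numbered cortex and hippocampus libraries correlated at a mean r of 0.14 (17 of 32 over 0.1), against -0.0461 for other numbers. Those of same-numbered KI and WT libraries correlated at 0.026 (10 of 32), against -0.00905. As the labels tie no libraries, the main fits took none as pairs. These values do not settle whether cortex and hippocampus libraries of 1 number share a mouse, and the main tests that span the regions make no allowance for it. The replicate block gave 3 genes called in the hippocampus at PWK 14 (Cacng7 0.0731 and Cnih2 0.0867 lost, Cnih3 0.0431 gained) and 2 in the cortex at PWK 28 (Cacng7 0.0547 lost), and 10 and 9 for hippocampus against cortex at PWK 1 and 14 (main 9 and 10).

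Total-sum scaling moved the share of all called genes that were higher by over 10 points: to 60.4% in KI cortex at PWK 14 (main 455 higher and 496 lower), 43.7% at PWK 28 (2236 and 1845), 40.6% in KI hippocampus at PWK 28 (1640.0 and 1271), 47.2% for the region difference at PWK 14 (303 and 222), 59.8% and 56.9% for WT PWK 28 against PWK 7 (1994 and 2090.0, 1168 and 1541) and 66.6% for hippocampus against cortex at PWK 1 (2954 and 3424), where upper-quartile scaling gave 57.0%.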
